A study of Mus musculus with 4 samples.

Results

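The distal stretch of mouse chromosome 15 from 72 to 103.5 Mb (mm10 build) held 26308 of the 1578514 regions that the authors called in a CUT&RUN study of the transcription factor Six3, or 1.67%. A region belonged to it when its midpoint lay from 72000001 to 103500000. The table names no library, but its highest signals fall on 2 ladders, and each region was put in a set by whether the column of highest signal was a whole multiple of 1.9 or of 0.48. In the interval 18106 regions were of the 1.9-step set, 8202 were of the 0.48-step set and 0 were of neither. The interval was chosen by its raised 1.9-step signal, so everything said of the level of that set describes the choice and carries no test. Chromosome 15 below 54.5 Mb (19302 regions in steps of 1.9 and 13014 in steps of 0.48) and chromosome 16 (35801 and 23911) serve for comparison.

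The study used primary neural stem cells of wild-type mice in which Six3 was overexpressed, kept with EGF and FGF and then moved to B-27 neurobasal medium for 3 h of neural differentiation. Per the labels, 3 libraries were directed at FLAG-tagged Six3 and 1 was an IgG control, and all 4 share the genotype, the overexpression and the medium. The labels do not state the vector and promoter that drove Six3, the number of cell lines or animals, or the libraries that entered the table. No column holds a single library, so no value below has a replicate error, no FLAG level can be set against IgG, and the cell type could not be checked against marker genes. The depth per library is unknown.

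CUT&RUN ties micrococcal nuclease to an antibody on chromatin, so that DNA around the bound protein is cut free and sequenced. Six3 is a homeodomain factor of the sine oculis family, known for forebrain and eye development and for repressing Wnt genes there, Wnt1 among them. The interval also holds Sox10, the HMG-box factor of neural crest and oligodendrocytes, Pvalb, a calcium buffer of fast-spiking interneurons, the Hoxc cluster, the type II keratins and the Ly6 family.

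Promoters of 4 genes are shown because they place the called regions on the sequence at genes the interval is described by. RefSeq promoters (GRCm38.p6, the assembly with mm10 coordinates, 250 bases before to 50 after the start) were on hand for 333 of the 544 protein-coding genes of the interval, as 414 promoters. None was on hand for Sox10 or for the genes from 75.1 to 76.6 Mb, the stretch of tallest signal described below. RefSeq lists a pair of Pvalb promoters; the one shown (chr15:78206351-78206650, minus strand), picked for its motif, lay wholly inside a 1.9-step region from 78205896 to 78206732 with a highest signal of 7.6, and the capitals mark its only copy of TGATAC, the core motif of that family, at position 114 from the 5′ end. The other (78204188 to 78204487) had 129 bases in a region of 3.8 and no copy of the motif. The Wnt1 promoter (chr15:98789607-98789906, plus strand) has a GC content of 70.7%, and capitals mark its 113 bases inside a 1.9-step region from 98789794 to 98790302 with a signal of 9.5. Ndufa6 encodes a subunit of respiratory complex I; capitals in its promoter (chr15:82354242-82354541, minus strand) mark the 39 bases at the highest signal, 13.3, of a region from 82354151 to 82354621. Copz1 encodes a coatomer subunit; capitals in its promoter (chr15:103272638-103272937, plus strand) mark the 246 bases inside 1.9-step regions, the taller of which ran from 103272735 to 103273584 at 13.3. Ndufa6 and Copz1 were picked for having the tallest 1.9-step regions over the promoters on hand.
Pvalb: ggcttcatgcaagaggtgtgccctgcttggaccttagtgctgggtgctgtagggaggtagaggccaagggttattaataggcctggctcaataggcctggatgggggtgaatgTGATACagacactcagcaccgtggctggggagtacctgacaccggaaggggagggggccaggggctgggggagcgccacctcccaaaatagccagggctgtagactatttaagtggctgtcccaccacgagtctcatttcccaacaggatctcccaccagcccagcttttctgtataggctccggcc
Wnt1: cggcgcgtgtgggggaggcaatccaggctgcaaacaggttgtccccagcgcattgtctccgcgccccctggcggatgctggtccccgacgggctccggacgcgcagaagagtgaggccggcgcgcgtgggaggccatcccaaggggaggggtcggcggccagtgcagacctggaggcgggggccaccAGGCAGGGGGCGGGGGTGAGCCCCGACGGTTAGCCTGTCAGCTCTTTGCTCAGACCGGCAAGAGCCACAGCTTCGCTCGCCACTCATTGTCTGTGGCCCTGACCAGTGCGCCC
Ndufa6: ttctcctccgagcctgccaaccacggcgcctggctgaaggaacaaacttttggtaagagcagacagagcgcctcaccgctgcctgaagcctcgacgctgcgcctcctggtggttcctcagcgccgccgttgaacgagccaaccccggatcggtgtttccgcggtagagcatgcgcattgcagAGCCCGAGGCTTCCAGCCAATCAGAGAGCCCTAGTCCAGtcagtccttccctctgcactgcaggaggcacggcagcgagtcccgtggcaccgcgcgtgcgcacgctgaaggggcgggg
Copz1: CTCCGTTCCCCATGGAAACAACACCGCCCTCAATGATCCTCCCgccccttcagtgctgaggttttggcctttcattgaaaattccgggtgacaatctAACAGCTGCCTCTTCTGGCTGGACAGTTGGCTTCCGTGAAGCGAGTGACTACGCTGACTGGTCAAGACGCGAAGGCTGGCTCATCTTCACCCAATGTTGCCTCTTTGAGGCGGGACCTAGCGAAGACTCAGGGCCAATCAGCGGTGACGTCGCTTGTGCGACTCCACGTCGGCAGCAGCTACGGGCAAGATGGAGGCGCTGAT

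The rise spanned the whole interval, and its height departed most from evenness between 75 and 77 Mb. The chromosomes were cut into 500 kb bins, the 1.9-step signal summed over the regions of a bin was divided by that of the median autosomal bin, and the result is called the relative signal. Over the 63 bins of the interval it had a median of 1.72, with quartiles of 1.61 and 1.82 and a range of 1.26 to 4.17. All 63 bins lay above 1.2 times the autosomal median, and 49 of them above 1.6 times, against 2.69% of all autosomal bins. Chromosome 15 below 54.5 Mb had a median of 0.994 over 103 bins (0.631 to 2.33), and chromosome 16 had 0.974 over 190 bins (0.639 to 1.43). The interval's lowest bin was thus above the chromosome 16 median, while its lower bins overlapped the highest of chromosome 16.

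The coefficient of variation between bins was 24.96% in the interval, 26.2% below 54.5 Mb and 13.4% on chromosome 16. Most of the interval's spread came from 4 bins between 75 and 77 Mb, a stretch picked after seeing the data. Without them the coefficient was 11.3% and the median 1.71. In bins of 100 kb it was 15.2% without that stretch and 19.97% on chromosome 16, and in bins of 1000 kb 9.54% and 11.7%. Away from 75 to 77 Mb, the raised interval thus varied no more from bin to bin than chromosome 16 at each of the 3 bin sizes. Chromosome 16 kept all its bins, which favours this result. With all bins kept the interval varied more, at 29.3% in bins of 100 kb and 22.5% in bins of 1000 kb.

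**Figure D1:**
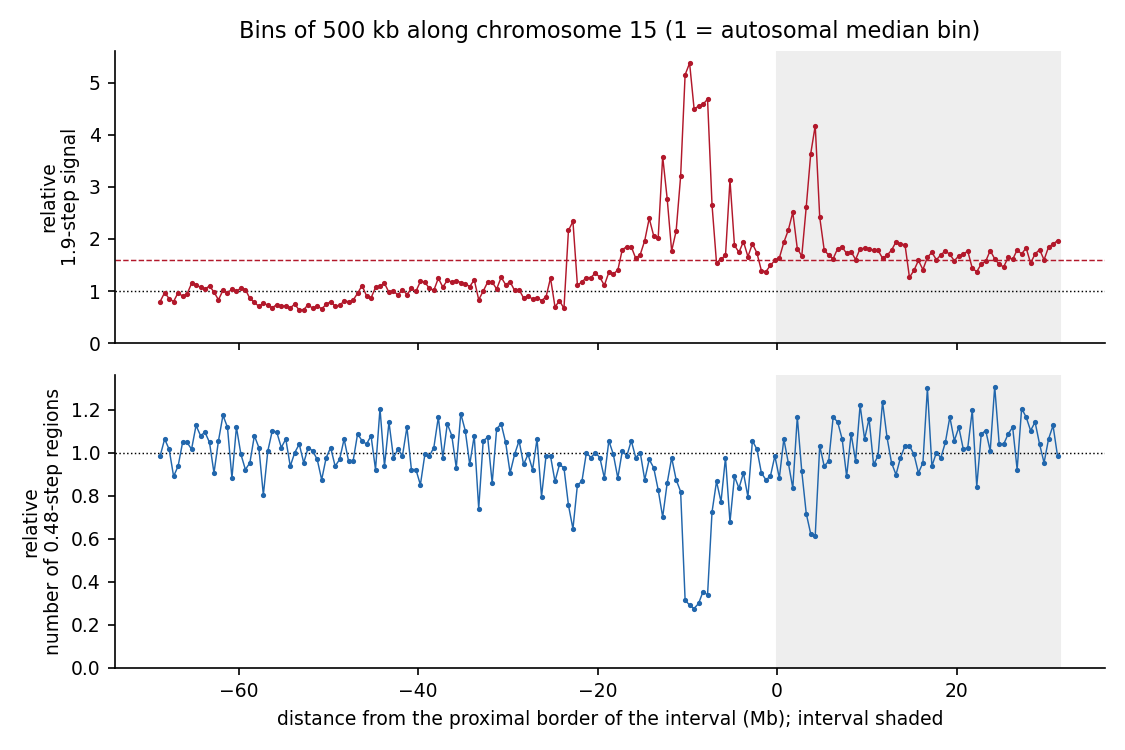
Relative 1.9-step signal (upper panel) and relative number of 0.48-step regions (lower panel) in 500 kb bins along chromosome 15, where 1 is the autosomal median bin, plotted by distance in Mb from the proximal border of the interval, which is shaded; the dashed line marks 1.6. The upper line stays above 1.2 across the shading, peaks at 4.17, and is as high just before the border as just after it, while the lower line dips to 0.614 under that peak and to 0.276 under the taller peak before the interval.

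No break was seen at the proximal border. The bins from 71.5 to 72 Mb and from 72 to 72.5 Mb had relative signals of 1.59 and 1.63, and both lay in or beside Col22a1, a collagen gene that spans the border from 71795795 to 72150979. The stretch from 65 to 72 Mb had a median of 1.67 over 14 bins, close to the 1.72 of the interval, and 54.5 to 65 Mb had 2.39 over 21 bins. Below that, the medians of 5 Mb blocks ranged from 0.711 (15 to 20 Mb) to 1.29 (50 to 55 Mb). At the distal border the last bin, 103 to 103.5 Mb, had 1.97. The rest of the chromosome beyond it, which Nckap1l (a cytoskeletal regulator of blood cells) crosses into, held 217 regions of the 1.9-step set and a relative signal per length of 1.67. The 72 Mb border is thus that of the rule, and the raised signal ran across it.

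A run of 63 adjacent bins as high as this was found on no other autosome. The highest median over any such run was 1.84 on chromosome 15, where the run reached into the tall stretch before 65 Mb. The next were 1.31 on chromosome 13 and 1.14 on chromosome 10, and chromosome 8 was lowest with 1.04.

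**Figure D2:**
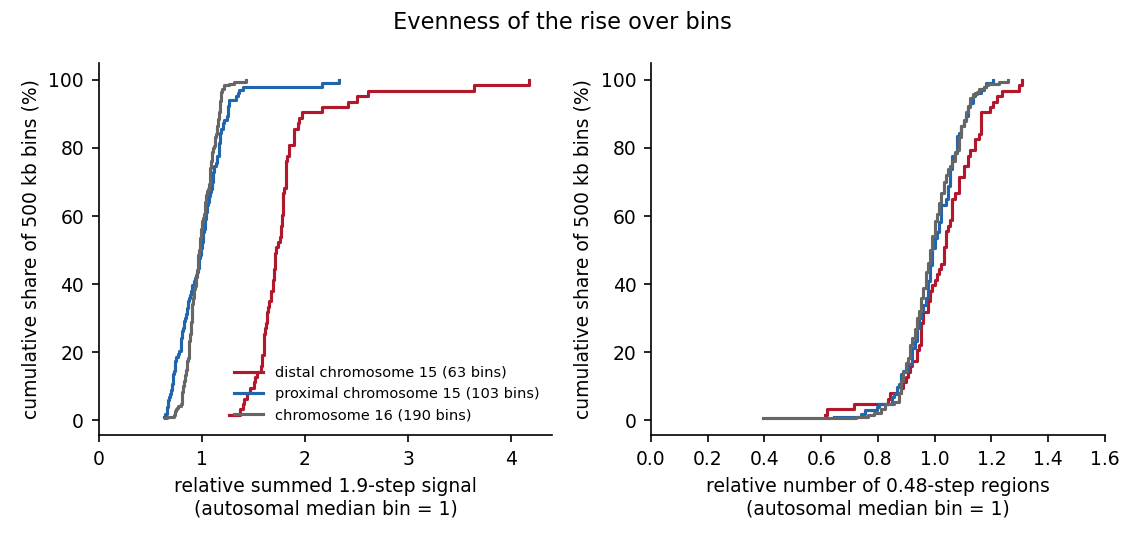
Cumulative share of 500 kb bins (percent) against the relative 1.9-step signal (left) and the relative number of 0.48-step regions (right), for the interval (red, 63 bins), chromosome 15 below 54.5 Mb (blue, 103 bins) and chromosome 16 (grey, 190 bins). On the left the red curve is as steep as the grey one but shifted from 0.974 to 1.72 at the median, with a tail to 4.17; on the right the curves nearly coincide, with medians of 1.03, 0.992 and 0.988.

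The rise had 3 components that multiply. Against chromosome 16, the interval had 1.53 times as many 1.9-step regions per Mb (574.8 against 376.8), a mean width 1.10 times as large (555 against 506 bp) and a mean signal per base inside regions 1.09 times as high (3.51 against 3.21). Together they gave 1.83 times the signal per base of sequence. Against chromosome 15 below 54.5 Mb the same figures were 1.53, 1.09, 1.09 and 1.81. Regions of the set covered 31.9% of the interval, 19.1% of chromosome 15 below 54.5 Mb and 19.1% of chromosome 16, and the median gap between them was 786, 1407 and 1445 bp. The number of regions, more than their size, carried the difference.

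The excess in density lay at heights above 2 steps. Densities by height cannot tell which regions were added and which only stood taller. Those of 2 steps (a highest signal of 3.8), the lowest of the set, stood at 144.03 per Mb in the interval and at 139.2 on chromosome 16, a ratio of 1.03. The ratio was 1.505 at 3 steps, 2.11 at 4 steps, 2.95 at 5 steps, 3.62 at 6 steps and 5.83 at 7 steps. Against chromosome 15 below 54.5 Mb it ran 1.03, 1.56, 2.05, 2.92, 3.31 and 5.08. Above 7 steps the interval held few regions, 36, 13 and 10 at 8, 9 and 10 or more steps, and the ratio had no steady course: 6.39, 9.80 and 3.77 against chromosome 16, and 3.67, 3.54 and 5.44 against chromosome 15 below 54.5 Mb. Regions of 5 or more steps made up 11.9% of the interval's set, 5.65% of chromosome 16's and 5.88% below 54.5 Mb. Over the 18 other autosomes, 2-step regions ranged from 130 to 142 per Mb, and regions of 4 or more steps from 74.5 to 98.7 per Mb, against 196 in the interval. The density of the lowest regions was thus near that elsewhere, and the excess grew with height up to 7 steps.

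The 0.48-step set, which the choice of the interval by its 1.9-step signal did not use, had nearly the same number of regions as elsewhere. Its relative number per bin had a median of 1.03 in the interval (0.614 to 1.31), 0.992 below 54.5 Mb and 0.988 on chromosome 16. Its regions covered 5.77%, 5.73% and 5.70% of sequence. It was nonetheless taller in the interval. Regions of 4 or more steps of 0.48 (a highest signal of at least 1.92) were 504 of 8202, or 6.14% (95% exact Clopper-Pearson interval 5.63 to 6.69), against 594 of 13014, or 4.56% (4.21 to 4.94), below 54.5 Mb and 1006 of 23911, or 4.21% (3.96 to 4.47), on chromosome 16. These intervals cover counting error only, and the step was picked after seeing the data.

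The other 18 autosomes ranged from 4.16% to 4.53%, so the interval lay above each of them. The share was 6.05% without 75 to 77 Mb, and along the interval it ran from 5.36% (82 to 87 Mb) to 7.70% (72 to 77 Mb) in 6 blocks. Each block was above the whole-chromosome shares of the other autosomes, but blocks of like size were not computed there. The lowest block rests on 70 of 1306 regions, so its counting error is larger than that of the whole interval. It was 6.60% among 0.48-step regions overlapped by a 1.9-step region and 5.80% among those that were not, against 4.90% and 3.94% on chromosome 16. The stretches next to the interval were raised too, at 6.20% from 65 to 72 Mb and 8.56% from 54.5 to 65 Mb. Relative to chromosome 16, the density of 0.48-step regions was 0.990 at 2 steps, 1.10 at 3, 1.42 at 4 and 2.14 at 5, the last from 80 regions. Relative to chromosome 15 below 54.5 Mb it was 0.994, 1.08, 1.34 and 1.72. At 6 steps, with 9 regions, the ratios were lower, at 1.94 and 1.05. Up to 5 steps, the lowest regions thus stood at the density found elsewhere and the ratio grew with height.

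**Figure D3:**
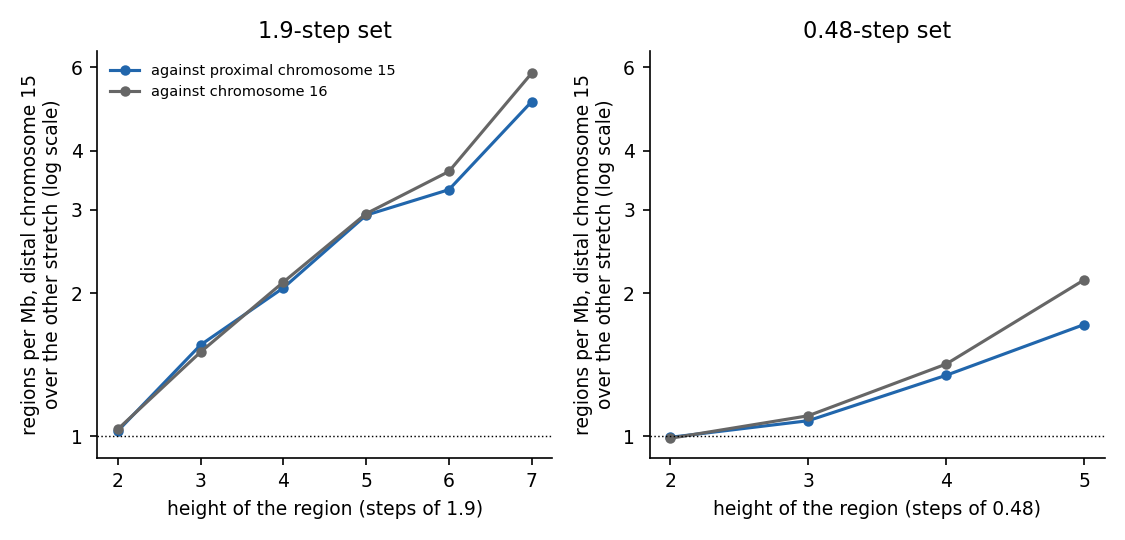
Regions per Mb in the interval over those per Mb in chromosome 15 below 54.5 Mb (blue) and on chromosome 16 (grey), by the height of the region in steps, for the 1.9-step set up to 7 steps (left) and the 0.48-step set up to 5 steps (right), on a log axis; taller regions were few and are not drawn. In both panels the ratio is near 1 at 2 steps and climbs, to 5.83 at 7 steps on the left and 2.14 at 5 steps on the right, both against chromosome 16.

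Genes and the sequence between them shared the rise. Regions of the 1.9-step set covered 34.3% of the windows of 1 kb either side of gene ends, 32.5% of gene bodies and 31.0% of intergenic sequence in the interval. On chromosome 16 these shares were 21.8%, 19.8% and 18.4%, which gave ratios of 1.57, 1.64 and 1.68. Bins with 0 to 3 genes had a median relative signal of 1.61 (20 bins), those with 4 to 9 had 1.75 (21 bins) and those with 10 or more had 1.80 (22 bins). On chromosome 16 the same classes had 0.923, 1.09 and 1.13, so the order by gene number was alike and each class of the interval was higher.

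Around RefSeq start sites the covered share rose little. The start sites and promoters on hand include none of the genes from 75.1 to 76.6 Mb, where the signal was tallest. It was highest, at 40.02%, from 200 to 400 bp before the start. Within 400 bp of a start 34.3% of bases were covered, and beyond 3000 bp 31.4%, a ratio of 1.10. The ratio was 1.11 both below 54.5 Mb and on chromosome 16. In all, 215 of 414 promoters (51.9%) overlapped a 1.9-step region, against 34.7% of autosomal promoters, and 91 (22.0%) overlapped one of 4 or more steps, against 9.99%. A 0.48-step region overlapped 50 (12.1%), against 12.7% of autosomal promoters. TGATAC, read on both strands (GTATCA on the other), was in 10 of the 414 promoters (2.42%) and in 4.44% of the 20085 autosomal ones. A 1.9-step region overlapped 3 of the 10 promoters with the motif, Pvalb's among them, and 212 of the 404 without it.

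**Figure D4:**
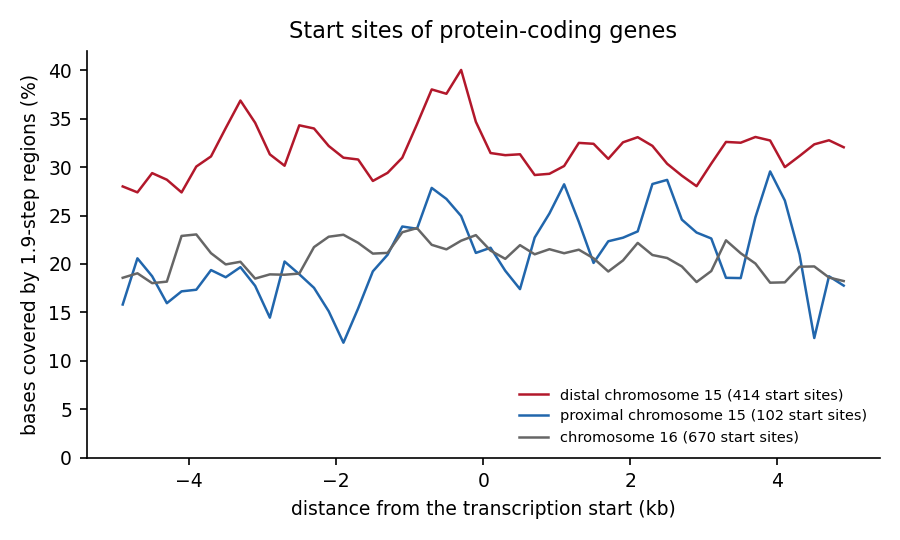
Percent of bases covered by 1.9-step regions in 200 bp bins against distance in kb from RefSeq start sites, for the interval (red, 414 start sites), chromosome 15 below 54.5 Mb (blue, 102) and chromosome 16 (grey, 670). The red line lies above the others at all distances, with its highest point, 40.02%, just before the start.

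The tallest signal of the interval lay in a single stretch. In 100 kb bins, 15 adjacent bins from 75.1 to 76.6 Mb exceeded 2.4 times the autosomal median (a threshold picked after seeing the data), with a median of 3.62 and a range of 2.45 to 6.60. The run held 58 protein-coding genes, counted by gene midpoint, from the Ly6 family at its proximal end to Adck5, a gene of a kinase-like family, at its distal end. A pair of shorter places passed the same threshold, at 73.4 to 73.7 Mb (2.44 to 2.73) and at 73.9 to 74 Mb (2.51). In the 75.1 to 76.6 Mb run 1.9-step regions were 2.03 times as many as in the median bin, and 0.48-step regions 0.64 times as many. Over the 500 kb bins of the interval the relative number of 0.48-step regions was 1.06 where the relative signal was 1.6 to 2 (43 bins), 0.894 at 2 to 3 (4 bins) and 0.618 above 3 (2 bins). Across all autosomes it was 0.323 in the 24 bins above 3. In the tallest bins of the interval the 1.9-step set was thus above, and the 0.48-step set below, its level elsewhere in the interval.

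Inside the run the signal stepped up once more. The limits of the pieces below were picked after seeing the data. From 76.30 to 76.40 Mb the median 10 kb bin had a relative signal of 3.81 and 60.5% of its bases covered. From 76.40 to 76.56 Mb the median was 6.96 (3.25 to 11.3) with 80.5% covered. These 160 kb held 95 regions in steps of 1.9 and 5 in steps of 0.48, the latter 0.123 times the number in the median bin. From 76.58 to 76.70 Mb the signal was back at 1.84 (0.861 to 3.47) with 32.8% covered, and the 0.48-step regions numbered 49. The fall lay around the stretch between the end of Slc52a2 at 76547878 and the start of Adck5 at 76576359.

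The genes on either side of that edge differed, though with overlap in coverage. The edge was placed after seeing the same 1.9-step regions, so this difference follows from that choice and is only a description. By midpoint, 9 genes lay from 76.40 to 76.56 Mb, with a median of 80.6% of the gene body covered (0 to 96.6%), and 10 lay from 76.56 to 76.70 Mb, with 30.3% (10.7 to 53.3%). The median gene of the interval had 32.5%, which 8 of the 9 and 5 of the 10 exceeded. The highest signals at gene ends ran from 11.4 to 20.9 before the edge and from 3.8 to 9.5 past it. Hsf1, the master factor of the heat shock response (76477362 to 76501155), held 20 regions in steps of 1.9 and a single one in steps of 0.48, with 80.6% of its body covered and 15.2 at its ends. Dgat1, an enzyme of triglyceride synthesis, had 82.0% covered and 20.9. Scrt1, a neuronal zinc finger repressor of the Snail family, had 96.6% covered, and its region from 76518025 to 76522040 was, at 4016 bp, the widest of the interval. Slc52a2, a riboflavin transporter gene, had 52.9% covered and reached 19.0 at its ends, and the body of its neighbour Fbxl6, an F-box protein gene, had 0% covered with 17.1 at its ends. Past the edge, Adck5 had 23.7% covered and 3.8 at its ends, and Cpsf1, a subunit of the mRNA cleavage and polyadenylation complex, had 23.1% and 5.7, with 9.5 inside both bodies. Vps28, a subunit of the endosomal sorting machinery, was the most covered gene past the edge with 53.3% and had 9.5.

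**Figure D5:**
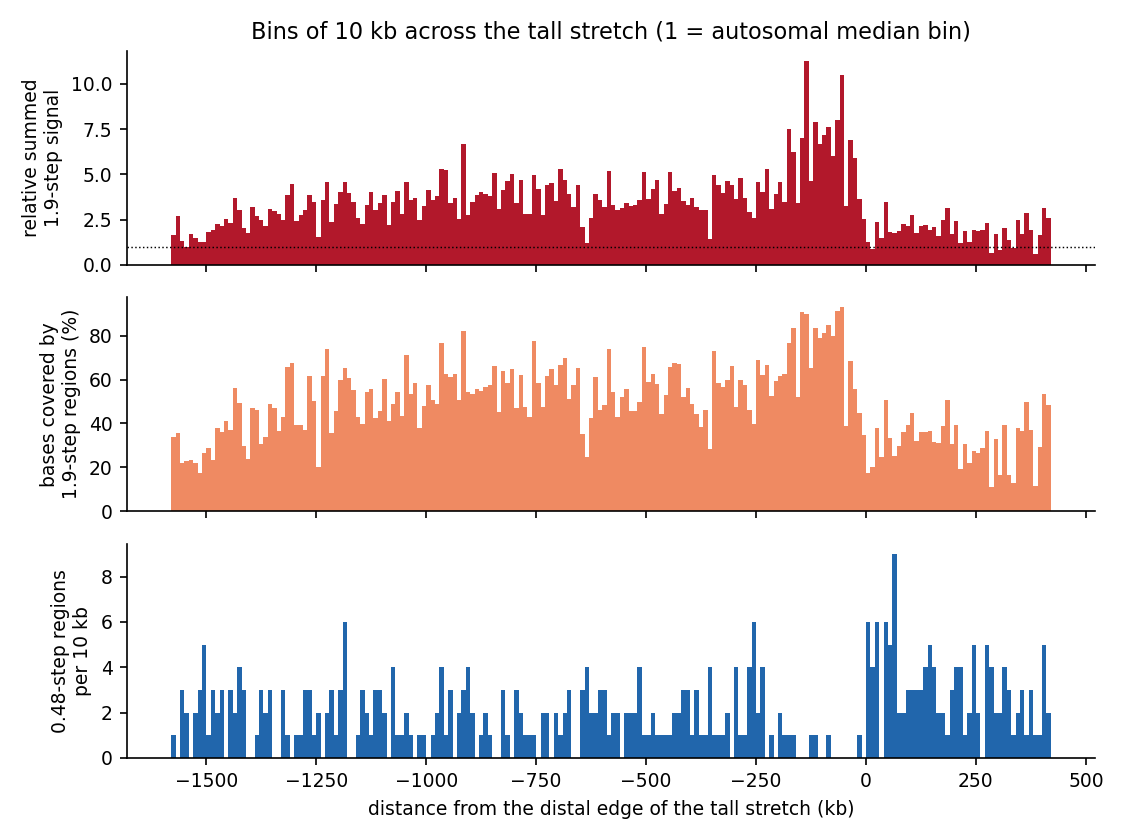
Relative 1.9-step signal (top; 1 is the autosomal median), percent of bases covered by 1.9-step regions (middle) and number of 0.48-step regions (bottom) in 10 kb bins, by distance in kb from the distal edge of the tall stretch. The edge is set at 76.58 Mb. From 76.40 to 76.56 Mb the signal reaches 11.3 while the 0.48-step regions nearly vanish (5 in 160 kb). Past the edge, to 76.70 Mb, the signal returns to a median of 1.84.

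Many of the tallest regions lay there. Of the 10 regions of 10 or more steps, 7 lay from 75 to 77 Mb, 5 lay from 76.4 to 76.6 Mb, and 5 overlapped a gene. The stretch from 75 to 77 Mb held 1419 of the 18106 regions of the set. Gene bodies beyond 1 kb of an end made up 48.5% of the interval. None of the 10 overlapped a 0.48-step region, beside 18.6% of all 1.9-step regions of the interval. With so few regions, nothing is read from this. Of the 13 regions of 9 steps (17.1), 8 lay from 75 to 77 Mb and 3 overlapped a 0.48-step region. The tallest, at 20.9, lay in Mroh1 (76444849 to 76446700) and across the end of Dgat1 at 76512021 (76511343 to 76513951). Outside the stretch stood a region of 19.0 from 73503728 to 73505117, 7.44 kb from Dennd3, and others of 19.0 at 13.2 kb from Cyth4 and 65.8 kb from Dbx2, a homeobox gene of spinal cord progenitors. The remaining ones of 10 steps lay in or nearest to Eppk1, Smpd5, Tmem249 and Slc52a2. Of the 11 regions of 6 or more steps in the 0.48-step set 3 lay from 75 to 77 Mb, and the tallest, at 3.36, were near Gfus (75932102 to 75932453) and Ankrd33 (101115049 to 101115437). Of these 11, 9 overlapped a 1.9-step region, beside 42.9% of all 0.48-step regions of the interval.

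The lowest signal lay from 86.5 to 88.5 Mb, where 4 bins had a median of 1.403 (1.26 to 1.59) and held 1 protein-coding gene. The relative number of 0.48-step regions there was 0.972, against 1.03 from 77 to 86.5 Mb and 1.06 from 88.5 to 103.5 Mb. The lowest bins of the interval were 86.5 to 87 Mb with 1.26 and no gene, 94 to 94.5 Mb with 1.37 and Adamts20, a secreted metalloprotease gene, and 87 to 87.5 Mb with 1.395 and no gene. The blocks from 77 to 86.5 Mb and from 88.5 to 103.5 Mb, with 186 and 243 genes, had medians of 1.78 and 1.69.

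At gene level the rise was broad. Of the 544 protein-coding genes 534 (98.2%) had a 1.9-step region within 1 kb of an end, against 89.4% of autosomal genes. A region of at least 4 steps (7.6) stood there in 375 (68.9%), against 40.2%. The share was 41.1% on chromosome 16 and 36.7% below 54.5 Mb. A 0.48-step region stood at an end of 356 genes (65.4%), against 66.5% of autosomal genes, which is near the background. The median of the highest 1.9-step signal at gene ends was 7.6 in the interval and 5.7 over all autosomal genes. The values of single genes below are the highest signals at gene ends.

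Sox10 (79154913 to 79164490) lay in a bin with a relative signal of 1.84. Its highest end signal was 9.5, from a region at 79153306 to 79154307 beyond its lower-coordinate end, and its body held 5 regions in steps of 1.9 (3.8 to 7.6) and 7 in steps of 0.48 (0.96 to 1.44). Its body was 27.8% covered, against 32.5% for the median gene of the interval. Pvalb (78191112 to 78206400) reached 9.5 at its lower-coordinate end (78190439 to 78191287) and 7.6 over the promoter printed above. Its body held 9 and 7 regions of the sets, and its 0.48-step signal of 1.92 was 4 steps high. Wnt1 (98789857 to 98793830) reached 9.5 in the region over its start, where a 0.48-step region of 1.44 (98789370 to 98789910) overlapped it, and 7.6 farther in (98792230 to 98792674). Its body held 3 and 2 regions. End signals of 5 steps or more, as in these genes, were found in 183 of the 544 genes (33.6%), against 13.8% of autosomal genes. Sox10, Pvalb and Wnt1 thus did not stand out from the interval.

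Among 8 Wnt, Hedgehog and planar polarity genes, 6 had a region of at least 7.6 at an end and 5 had a 0.48-step region. The ligand genes were Wnt1 at 9.5, Wnt10b and Wnt7b at 7.6, and Dhh (desert hedgehog) at 5.7. Of the others, Lmbr1l, a negative regulator of Wnt signalling in lymphocytes, had 9.5, Csnk1e, a casein kinase of the pathway and the clock, and Prickle1 of planar polarity had 7.6, and Celsr1, a polarity cadherin, had 3.8. The list's share sat beside 68.9% of all genes of the interval, and its median was the same 7.6.

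Of 10 glial and neural lineage factors 9 reached 7.6, with a median of 8.55, and 9 had a 0.48-step region, beside 68.9% and 65.4% of all genes of the interval. With 10 genes and no test, nothing particular to the list is read from these counts. Scrt1 had 13.3 but lies in the tall stretch and had no 0.48-step region at its ends. Plxnb2, a semaphorin receptor of neural progenitors, had 11.4, and Nr4a1, an immediate early nuclear receptor, and Pdgfb, a growth factor, had 9.5. Pou6f1, a POU-domain factor, was lowest with 5.7. Of 18 neuronal channel and synapse genes 11 (61.1%) reached 7.6, beside the same 68.9%. Arc, an immediate early gene of synaptic plasticity, and Lrrk2, a kinase linked to Parkinson's disease, had 9.5. Adgrb1, an adhesion receptor, had 7.6. Shank3, a scaffold of excitatory synapses, had no 1.9-step region at its ends and 0.96 in the 0.48-step set, while its body held 39 regions of the 1.9-step set that reached 9.5.

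Of 11 chromatin regulators 8 (72.7%) reached 7.6, near the 68.9% of all genes of the interval. The Polycomb gene Cbx6, the deacetylase gene Hdac10, L3mbtl2 and the BAF subunit gene Smarcd1 had 9.5, and the histone acetyltransferase gene Ep300 and Cbx5 (heterochromatin protein HP1 alpha) had 5.7. Of 9 Hoxc genes, which pattern the body axis, all had a 1.9-step region at an end and 4 reached 7.6, with a median of 5.7, beside 68.9% and 7.6 for the interval. Hoxc5 had 13.3, Hoxc4, Hoxc10 and Hoxc11 had 7.6, and the remaining 5 had 5.7. The genes of this cluster lie close together, so neighbouring ends can share a region.

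The tandem gene families spanned the range of the interval. The shares that reached 7.6 were 54.2% of the keratin genes, 81.0% of the Ly6 genes and 50% of the Cyp2d genes, beside 68.9% of all genes of the interval. No difference from that share was tested. Of 24 type II keratin genes 13 reached 7.6, led by Krt78 with 11.4, then Krt71, Krt76 and Krt86 with 9.5. Krt1 had none at its ends, while its body held 4 regions of the 1.9-step set that reached 9.5. Of 21 genes of the Ly6 family and its neighbours, which encode small anchored surface proteins, 17 reached 7.6. Gpihbp1, which carries lipoprotein lipase across capillaries, and Ly6g2 had 13.3, and Ly6e and Ly6l had 11.4. Gml had none at its ends and 3.8 in its body. Ly6g2, with Ly6c1 and Ly6c2, lies in the bin from 75 to 75.5 Mb, which had a relative signal of 2.62. Of 8 Cyp2d genes, which encode drug-oxidising cytochromes, 4 reached 7.6, with Cyp2d11 at 11.4 and Cyp2d40 at 9.5. Reads from near-identical copies in these families may have been placed at any of them, and the labels do not state how such reads were treated.

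The smaller lists had 3 to 8 genes each, too few to set their counts apart from the 68.9% of all genes of the interval that reached 7.6. Both Tuba1a and Tuba1b, alpha tubulins of neurons and of dividing cells, had 7.6. Tuba1c had no 1.9-step region at its ends, where the 0.48-step set had 1.44, and 3.8 in its body. The kidney and gland water channels Aqp2, Aqp5 and Aqp6 had 7.6, 9.5 and 7.6. Of 8 lipid and sterol genes 5 reached 7.6: Dgat1 had 20.9, and Ppara, Cpt1b, Cers5 and Srebf2 had 7.6. All 5 bone and cartilage genes reached it, with Col2a1 and Rarg at 9.5 and Sp7, Fbln1 and Vdr at 7.6. The TGF-beta family receptors Acvr1b and Acvrl1 had 13.3, and Amhr2 had 5.7. Across the 13 lists the median ran from 5.7 to 13.3 with lists as short as 3 genes, and 9 of them had the interval's own median of 7.6.

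Of the 31 microRNA hairpins on hand for the interval, 15 (48.4%) overlapped a 1.9-step region, against 24.2% of autosomal hairpins on hand. A 0.48-step region overlapped 2 of the 31, against 72 of the 919 autosomal ones. The first of the 31 starts at 78284788, so the part of the interval before it, with its tallest stretch, is not represented. Mir196a-2 of the Hoxc cluster had 5.7, Mir33, in the Srebf2 gene, and Mir148b had 3.8, and the hairpins of Mirlet7b and Mirlet7c-2 had none.

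The sets overlapped more in the interval. Of the 8202 regions of the 0.48-step set 3515 (42.9%) overlapped one of the 1.9-step set by at least 1 base, against 28.0% below 54.5 Mb, 27.6% on chromosome 16 and 28.4% over all autosomes. In the other direction 18.6% of 1.9-step regions overlapped a 0.48-step one, against 18.0%, 17.6% and 17.8%. The covered share of the 1.9-step set differs between the stretches as given above, and its part in the overlap was not tested.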

How the data were processed

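Genomic DNA of CUT&RUN libraries was cut with pA/G-MNase and built into libraries with a ThruPLEX kit, per the labels' protocols; Bowtie2, deepTools and SEACR were used with mm10, per the submitters' processing notes, without versions or order. The authors deposited 1 table of 6 columns without a header, in the layout of SEACR: position, summed signal, highest signal (in the coverage units of the authors' tracks, whose scaling the labels do not state) and its place. These deposited signal values are the authors' own and were used only to describe and rank regions within the table. The sets need not share a scale.

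Heights within 0.001 of a whole number of steps set the step set. Bins of 500 kb with at least 20 regions, by midpoint, were divided by the autosomal median. Genes came from RefSeq (GRCm38.p6). Python 3.11.15, numpy 2.4.6 and pandas 2.3.3 were used, and the binning was tested on simulated data. The members and gene lists were chosen with earlier results of these data known. From each list the text names up to 4 genes with the highest end signals and up to 2 without a region; genes nearest the tallest regions, in the extreme bins and across the borders are named too, and other genes were named after their values were seen. With no column per library, no test between groups was made.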

Additional observations from a re-analysis of the deposited data

How the results depend on the processing

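No paired analysis was possible because no column holds a single library, and for the same reason no library could be left out. Of 31 alternative values for 13 results, 20 stayed within the 95% exact interval of the value given (shares counted over bins, regions, genes or promoters) or within 1.5 times of it (other values), among them the median relative 1.9-step signal (1.70 to 1.99), the relative number of 1.9-step regions (1.48 to 1.76) and of 0.48-step regions (1.03 to 1.13), and 11 moved. Without 75 to 77 Mb, a stretch chosen after seeing the data, the coefficient of variation was 11.3% and 3 regions of 10 or more steps remained; at 8 or more steps there were 59. The share of bins raised was 95.2% above 1.4 times and 9.52% above 2 times the median. The share of 0.48-step regions overlapped was 32.1% when 50% of the region had to be covered and 33.2% with 1.9-step regions of at least 3 steps. Genes with a strong region at an end were 33.6% at 5 steps, against 13.8% of autosomal genes, and 97.6% in windows of 5 kb. Genes with a 0.48-step region were 97.8% in windows of 5 kb. The shares of autosomal genes in windows of 5 kb were not computed, so nothing is read from the 97.6% and 97.8%. GGTATCA was in 0.966% of promoters, against 1.12% of autosomal ones. The cause of these moves was not tested. Depth is unknown, and counting intervals leave out variation between libraries.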

Other observations

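The longest stretches of the interval without a 1.9-step region were short beside its length. The longest, 15.7 kb from 100330341 to 100346012, lay at Mettl7a3, a member of a family of near-identical methyltransferase-like genes, and held 2 regions of the 0.48-step set. The next, 14.3 kb from 88096040 to 88110353, lay nearest to Tafa5, a secreted neural protein gene, in the gene-poor stretch of lowest signal, and held 3. On chromosome 16 the longest such gap was 77905 bp, and below 54.5 Mb on chromosome 15 it was 149374 bp.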
